A study of Mus musculus with 298 samples.

Results

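Transcripts of 7 neuropeptide genes, Cck, Cartpt, Gal, Trh, Npy, Nts and Tac1, were followed in single mouse neurons taken from the suprachiasmatic nucleus (SCN), the master circadian clock in the hypothalamus. The genes were chosen by name as peptides outside the main SCN set, and they were 7 of 22800 genes in the deposited table. The cells had been patch-clamped in slices, their firing was recorded, and the RNA of each cell was sequenced from its aspirated contents. The animals lived under 12 h light and 12 h dark cycles, with slices cut near lights on for day cells and near lights off for night cells. Among active cells, 51 were cFOS+ and 27 cFOS- by day, and 41 were cFOS+ and 46 cFOS- at night. Among silent cells, 17 were cFOS+ and 32 cFOS- by day, and 34 bore each label at night. A further 14 cells were labelled depolarized, namely 2 cFOS+ and 7 cFOS- by day and 3 cFOS+ and 2 cFOS- at night. All were described as interneurons of the nucleus. The sources used here do not give strain, sex, age or how the cFOS label was assigned. No agent or allele is named for any group, and no label ties a cell to an animal or slice.

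Neuropeptides are cut from larger precursors, stored in dense-core vesicles and act through receptors coupled to G proteins on nearby cells. In the SCN, nearly all neurons also make the fast transmitter GABA, and the peptides Vip, Avp, Grp and Nms carry timing signals between them. The 7 genes studied here have been described in scattered SCN cells, in their inputs or in the surrounding hypothalamus. Cck encodes cholecystokinin, a gut and brain peptide of satiety. Cartpt encodes the CART peptides, which reduce feeding, Gal encodes galanin, and Trh encodes the releasing hormone of the thyroid axis. Npy encodes neuropeptide Y, which promotes feeding and also reaches the SCN in fibres from the thalamus, Nts encodes neurotensin, and Tac1 encodes the precursor of substance P and neurokinin A.

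The 297 distinct cells include 1 that stands for S70 and S71, night silent cells of opposite cFOS label whose profiles were nearly the same; it is in no cFOS group. Totals ran from 3187057 to 25535298 reads, with a median of 6319546, and 2341 to 8420 genes were detected per cell. Levels are read counts scaled to the total of the cell (CPM), and a cell is said to hold a gene at 100 CPM or more. Gad1, which encodes a GABA-synthesizing enzyme, was held by most cells, while Six6, a transcription factor of the developing and adult SCN, was held by 53 of them. Each group was treated as 1 sample, because cells are not replicates, so differences between groups were not tested. Intervals of shares are exact 95% binomial intervals over cells, those of pooled CPM are exact 95% Poisson intervals of reads, and neither covers differences between animals or slices. The reads carry no molecular identifiers that the labels mention, so they are not independent molecules.

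The 250 bases before the RefSeq start of each gene (build GRCm38.p6) were searched on both strands for 3 motifs that bear on the labels. These were the cAMP response element TGACGTCA, the AP-1 site TGAGTCA, to which cFOS and JUN proteins bind, and the E-box CACGTG, to which the clock activators bind. All 7 genes had an entry, and the 4 with a match are shown 5′ to 3′ on the strand of the gene, with the motif in capitals. The windows were chr9:121495695-121495944 (minus strand) for Cck, chr13:99900684-99900933 (minus) for Cartpt, chr10:102490419-102490668 (minus) for Nts and chr6:7554811-7555060 (plus) for Tac1.
Cck: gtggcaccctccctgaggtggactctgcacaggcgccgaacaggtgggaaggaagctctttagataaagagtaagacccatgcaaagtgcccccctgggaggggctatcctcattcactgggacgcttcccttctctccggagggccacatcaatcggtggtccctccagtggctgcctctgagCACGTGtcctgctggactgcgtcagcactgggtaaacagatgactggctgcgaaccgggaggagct
Cartpt: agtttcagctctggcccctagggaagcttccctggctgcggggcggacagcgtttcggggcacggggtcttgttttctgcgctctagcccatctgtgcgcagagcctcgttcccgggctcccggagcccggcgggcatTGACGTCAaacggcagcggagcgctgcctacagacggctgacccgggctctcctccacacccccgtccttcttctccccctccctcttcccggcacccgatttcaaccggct
Nts: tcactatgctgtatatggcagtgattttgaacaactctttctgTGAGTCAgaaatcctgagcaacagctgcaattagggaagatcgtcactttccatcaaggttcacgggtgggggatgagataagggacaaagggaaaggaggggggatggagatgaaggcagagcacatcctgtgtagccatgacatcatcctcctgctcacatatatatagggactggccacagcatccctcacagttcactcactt
Tac1: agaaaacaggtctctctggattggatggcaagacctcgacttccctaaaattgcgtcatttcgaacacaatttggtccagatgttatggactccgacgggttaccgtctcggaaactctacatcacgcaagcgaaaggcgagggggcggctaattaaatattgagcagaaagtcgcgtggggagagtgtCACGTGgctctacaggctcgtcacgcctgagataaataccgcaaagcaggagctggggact
The E-box of Cck lay 66 bases and that of Tac1 61 bases before the start, the cAMP response element of Cartpt 112 bases and the AP-1 site of Nts 207 bases before it. Of 32851 mouse promoters of the same length, 1.55% held the cAMP response element, 4.46% the AP-1 site and 6.02% the E-box. Gal, Trh and Npy had none of these letters in their windows. The GENCODE start of Nts lies 68 bases and that of Tac1 182 bases further upstream, and that of Cartpt lies before its window, so other starts would give other windows.

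Each of the 7 genes was a minority transcript, and most of its reads came from few cells. At least 1 of them was held by 78 of 297 cells (26.3%), and 57 of these held exactly 1. The lowest and the median level were 0 CPM for every gene in each of the 12 groups, so only the upper end of each distribution varied.

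Cartpt (chromosome 13, 99898489 to 99901091, minus strand) was the most widely held of the 7. It reached 100 CPM in 26 cells (8.75%, 5.80 to 12.6%) and 1000 CPM in 8, with a pooled level of 135 CPM. Its highest cell in each group stood at 5253 CPM among day silent cFOS+, 1911 among day silent cFOS-, 2371 among day active cFOS+ and 108 among day active cFOS- cells. At night the highest cells had 4651 CPM among active cFOS+, 828 among active cFOS-, 3412 among silent cFOS+ and 894 among silent cFOS- cells. In each of the 4 pairs of groups the highest Cartpt cell was thus a cFOS+ cell.

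Gal (chromosome 19, 3409915 to 3414544, minus strand) followed with 21 cells (7.07%, 4.43 to 10.6%) and a pooled level of 70.1 CPM. Its highest cells were at 3965 CPM in the night silent cFOS- group and at 3725 CPM in the day active cFOS- group, against 1965 CPM at most in any cFOS+ group. Of the 10 cells with a Gal read but less than 100 CPM, the median had 111 reads, and the lowest, S480 and S540, stood at 0.115 and 0.236 CPM.

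Cck (chromosome 9, 121489824 to 121495694, minus strand) was detected most often but rarely at a high level. A read was found in 56 cells, of which 17 (5.72%, 3.37 to 9.01%) reached 100 CPM and 3 reached 1000 CPM. The highest cell, S24 (night silent cFOS-), had 7582 CPM and gave 25.2% of all Cck reads. Among day cells the highest levels were 2683 CPM in an active cFOS- cell and 1657 CPM in a silent cFOS- cell.

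Trh (chromosome 6, 92242061 to 92244650, minus strand) had the opposite form, with few cells at very high levels. It was held by 15 cells (5.05%, 2.85 to 8.19%), of which 13 were above 1000 CPM and 8 above 10000 CPM. The median of these 15 cells was 10740 CPM, and the highest, S540 (night active cFOS-), reached 41715 CPM, or 176811 reads. The other groups had their highest Trh cell at 34323 CPM (night silent cFOS+), 23440 CPM (day silent cFOS-), 15861 CPM (night active cFOS+), 11541 CPM (night silent cFOS-), 9819 CPM (day active cFOS-) and 213 CPM (day active cFOS+). No Trh read was found in the 17 day silent cFOS+ cells.

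Nts (chromosome 10, 102481756 to 102490486, minus strand) was held by as many cells, 15, but at lower levels, with a median of 677 CPM among them. Cell S175 (night active cFOS+) had 12584 CPM and gave 64.1% of all Nts reads. The next highest were S309 (night active cFOS-) with 6046 CPM and S97 (day silent cFOS+) with 3120 CPM.

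Tac1 (chromosome 6, 7554879 to 7565834, plus strand) and Npy (chromosome 6, 49822710 to 49829507, plus strand) were the rarest. Tac1 was held by 6 cells (2.02%, 0.745 to 4.35%), and S175 gave 73.2% of its reads at 4747 CPM. Npy was held by 4 cells (1.35%, 0.368 to 3.41%), and S409 (day active cFOS+) gave 86.4% of its reads at 5756 CPM. The other 3 Npy cells had between 148.9 and 322.4 CPM.

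Per kilobase of exon, which allows levels of different genes to be compared, pooled Trh stood at 491.1 CPM per kb, Nts at 156, Cartpt at 106, Gal at 89.0, Cck at 44.6, Npy at 31.0 and Tac1 at 19.0. Among the cells that held each gene, the median was 7760 CPM per kb for Trh and between 311.7 and 571.4 for the other 6 genes. Trh alone therefore combined a small number of cells with a level more than 10 times that of the others per cell. The cells just below and just above the 100 CPM limit were at 89.3 and 116 CPM for Cck, 81.2 and 108 for Cartpt, 98.5 and 131 for Gal, 96.5 and 176.6 for Trh, 89.8 and 148.9 for Npy, 83.6 and 120 for Nts and 47.7 and 183 for Tac1.

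**Figure D1:**
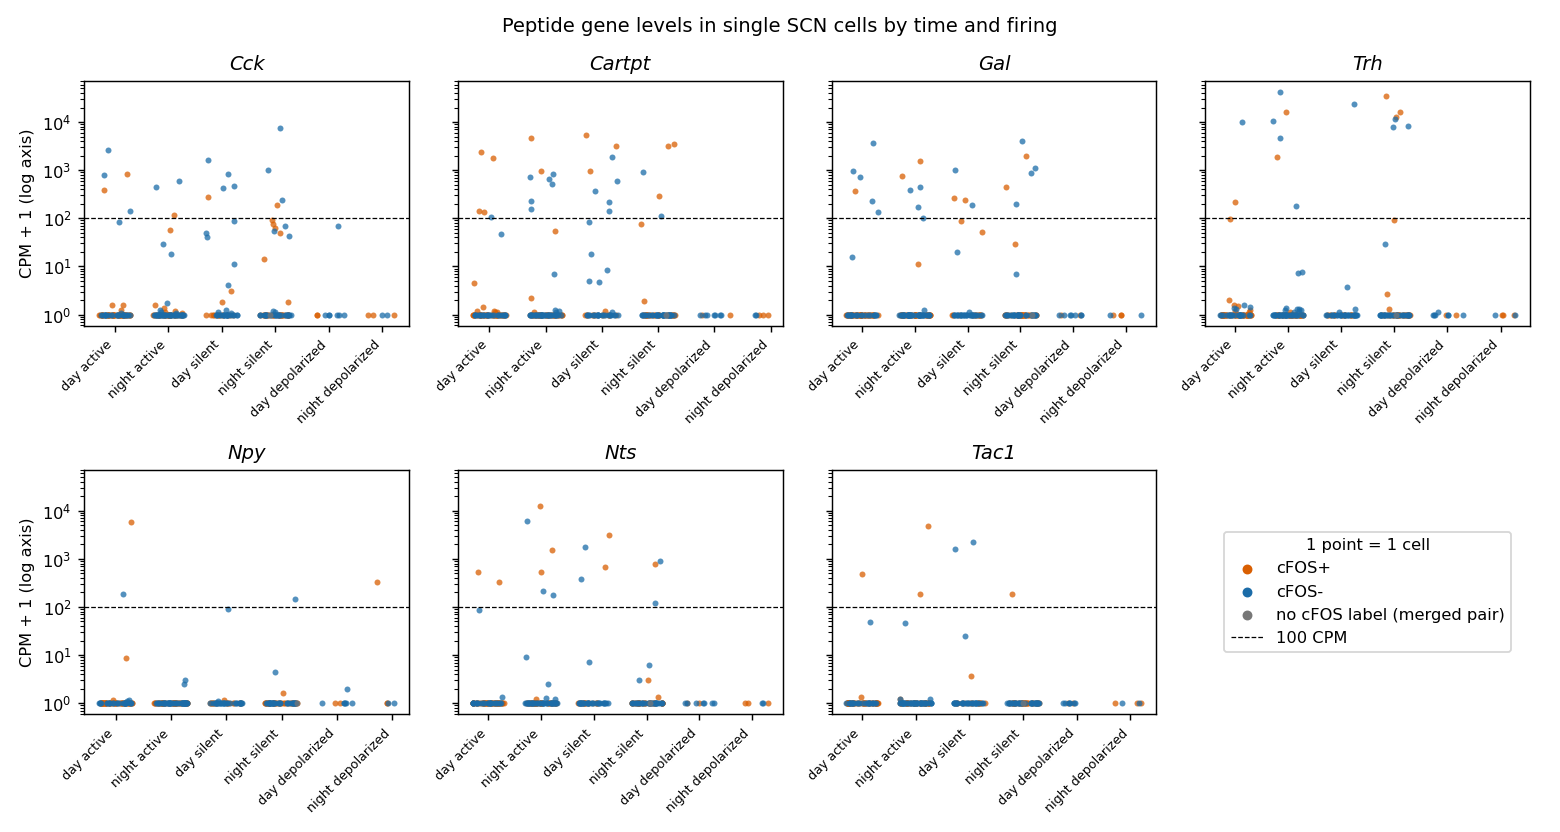
Level of each peptide gene in each cell (CPM + 1, log axis) by time of day and firing, with cFOS+ cells in orange and cFOS- cells in blue. Most cells lie at 0 CPM, and Trh reaches 41715 CPM while Cck, Cartpt, Gal, Npy and Tac1 stay below 10000 CPM.

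The first comparison asked whether the peptide genes differed between cells recorded by day and at night, and 127 day cells were set against 156 night cells. A member was held in 28.3% of the cells recorded by day (20.7 to 37.0%) and in 26.3% of those recorded at night (19.6 to 33.9%), a difference of 2.06 percentage points with an interval from -8.21 to 12.5. The titles number the cells, with a meaning that the labels do not state. The difference was -9.58 points among the lower-numbered cells and 13.3 points among the higher-numbered ones. Blocks of 50 numbers, depolarized cells included, held day and night cells unevenly. The first had 0 day and 11 night cells (54.5% with a member), another 30 and 0 (16.7%), and another 2 and 32 (23.5%). Others were mixed, such as a block with 17 day and 13 night cells. Time of day thus went partly with cell number, and the comparison cannot fully separate them. On pooled CPM, 1 gene was at least 2-fold higher by day and 3 at least 2-fold lower, while of 11856 genes compared 7% were 2-fold higher and 7.44% 2-fold lower. The median log2 ratio was -0.51 over the 7 genes and -0.03 over all genes.

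Trh showed the widest day-night difference in the number of cells. By day 3 cells held it (2.36%, 0.490 to 6.75%), against 12 cells at night (7.69%, 4.04 to 13.1%), a difference of -5.33 points whose interval, -10.8 to 0.09, reached just past 0. The share was lower by day in all 4 strata formed by firing and cFOS, with 1 of 51 against 2 of 41 active cFOS+ cells, 0 of 17 against 3 of 34 silent cFOS+ cells, 1 of 27 against 4 of 46 active cFOS- cells and 1 of 32 against 3 of 34 silent cFOS- cells. Pooled Trh stood at 311.1 CPM in day cells and 1032 CPM in night cells, a log2 ratio of -1.73, and it lay between -7.71 and -1.25 under the 10 alternative settings. Among silent cFOS- cells alone the pooled level was 936 CPM in the day group and 819 CPM in the night group, where 1 day cell held 23440 CPM.

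Cck was the one member more widely held by day in all 4 strata, with 10 day cells (7.87%, 3.84 to 14.0%) and 7 night cells (4.49%, 1.82 to 9.03%). Its pooled level was 76.8 CPM in day cells and 47.2 CPM in night cells, with a log2 ratio of 0.69 that ran from 0.0082 as means over cells to 3.24 among higher-numbered cells, but among silent cFOS- cells it was 95.3 CPM in day cells and 160.99 CPM in night cells. Cartpt was held by 13 day cells (10.2%) and 13 night cells (8.33%), with 122.8 CPM in day cells and 155.3 CPM in night cells, and the sign of its log2 ratio of -0.34 turned under 5 of 10 alternatives (0.36 without the highest cells). Gal was held by 10 day cells and 11 night cells, with 59.0 CPM in day cells and 84.6 CPM in night cells.

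Nts, Tac1 and Npy had ratios past 2-fold that were carried by few cells. Nts was held by 6 day and 9 night cells, with 64.3 CPM in day cells and 316.6 CPM in night cells, and its log2 ratio of -2.28 was 1.02 among higher-numbered cells. Tac1 was held by 3 day and 3 night cells, with 37.7 CPM in day cells and 91.2 CPM in night cells, and its log2 ratio of -1.25 became 2.45 once the highest cell of each group was left out. Npy was held by 2 day cells and 1 night cell, with 38.04 CPM in day cells and 0.795 CPM in night cells. Microglial markers also differed with time: their summed level was 100 CPM or more in 43.3% of day cells, against 32.7% of night cells, its range was 0 to 34382 CPM by day and 0 to 31204 CPM at night, and 11 of 11 markers were higher by day. Astrocyte markers reached 100 CPM in 37.0% of day and 26.3% of night cells, with 7 of 8 at least 2-fold higher by day, and oligodendrocyte markers in 41.7% of day and 28.2% of night cells, with 4 of 4 higher; the part of these markers in the results was not tested. Among the cells under 100 CPM of microglial markers, the share with any member was 29.2% by day (n = 72) and 21.0% at night (n = 105), and the Trh ratio was -1.25.

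The second comparison set 143 cFOS+ cells against 139 cFOS- cells, cFOS being the product of an early gene that neuronal activity induces. At least 1 of the 7 was held by 21.7% of cFOS+ cells (15.2 to 29.3%) and 33.1% of cFOS- cells (25.4 to 41.6%). The difference was -11.4 points with an interval from -21.5 to -1.005. It was negative in each pair of groups, with 19.6% against 37.0% of day active cells, 29.4% against 34.4% of day silent cells, 19.5% against 28.3% of night active cells and 23.5% against 35.3% of night silent cells. It was -16.5 points among lower-numbered and -6.39 points among higher-numbered cells, and -1.76 points when a cell had to reach 1000 CPM.

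On pooled CPM, 4 members were at least 2-fold higher and 2 at least 2-fold lower in cFOS+ cells, against 5.74% and 8.29% of 11828 genes. The median log2 ratio was 1.72 over the 7 genes and -0.04 over all genes. For Cartpt and Npy the share of cells was lower and the pooled level higher in cFOS+ cells, although within strata the Cartpt share was higher in 3 of 4.

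Cck was lower in cFOS+ cells on both measures and in all 4 strata. It was held by 5 cFOS+ cells (3.50%, 1.14 to 7.97%) and 12 cFOS- cells (8.63%, 4.54 to 14.6%). Pooled Cck was 18.5 CPM in cFOS+ cells and 104 CPM in cFOS- cells, a log2 ratio of -2.43 with strata from -3.50 to -1.72. Over the 10 alternatives it lay between -3.40 and -1.53.

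Cartpt was held by similar numbers, 12 cFOS+ cells (8.39%) and 14 cFOS- cells (10.1%), but at different levels. Its pooled level was 234.1 CPM in cFOS+ cells and 47.8 CPM in cFOS- cells, a log2 ratio of 2.27 with strata from 2.16 to 3.63 and alternatives from 1.70 to 3.10. All but 1 of the 8 Cartpt cells above 1000 CPM were cFOS+, the exception being S331 (day silent cFOS-) with 1911 CPM.

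Gal was held by 7 cFOS+ cells (4.90%) and 14 cFOS- cells (10.1%), with 35.4 CPM in cFOS+ and 112 CPM in cFOS- cells. Its log2 ratio of -1.64 became 0.60 among cells under 100 CPM of microglial markers. Trh was held by 6 cFOS+ and 9 cFOS- cells, with 644 CPM in cFOS+ and 782 CPM in cFOS- cells. Nts stood at 316.8 CPM in cFOS+ cells and 91.3 CPM in cFOS- cells, with 8 and 7 holding cells, and its log2 ratio of 1.78 was -0.72 among higher-numbered cells. For Tac1, the levels were 104 CPM in cFOS+ and 30.9 CPM in cFOS- cells and the ratio turned negative, -0.87, without the highest cells. Npy was at 31.7 CPM in cFOS+ cells, nearly all from 1 cell, and at 3.34 CPM in cFOS- cells, with a log2 ratio of -1.15 without the highest cells. The summed microglial markers reached 100 CPM in 30.8% of cFOS+ cells and 44.6% of cFOS- cells, with 1 of 11 markers higher in cFOS+ cells and a range of 0 to 34382 CPM in cFOS+ and 0 to 31204 CPM in cFOS- cells. Among cells under that limit the difference in the share with any member was -7.36 points.

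The third comparison set 165 spontaneously active cells against 118 silent cells. At least 1 of the 7 was held by 24.8% of active cells (18.5 to 32.2%) and 30.5% of silent cells (22.4 to 39.7%), a difference of -5.66 points with an interval from -16.3 to 4.74. On pooled CPM, 3 members were at least 2-fold higher and 2 at least 2-fold lower in active cells, against 7.21% and 6.28% of 11821 genes, and the median log2 ratio was -0.27 over the 7 and 0.01 over all genes. Summed microglial markers reached 100 CPM in 37.0% of active and 38.1% of silent cells, with ranges of 0 to 31204 CPM and 0 to 34382 CPM. Among cells under that limit the share with any member was 25% of active and 23.3% of silent cells.

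Cck was held by 4.85% of active and 7.63% of silent cells, with the lower share among active cells in all 4 strata. Its pooled level was 46.2 CPM in active and 80.2 CPM in silent cells. Cartpt was held by 7.88% of active and 11.02% of silent cells, Gal by 6.67% of active and 8.47% of silent cells, and Trh by 4.85% of active and 5.93% of silent cells. Pooled Trh was 406.4 CPM in active and 1127 CPM in silent cells, and pooled Gal 49.2 CPM in active and 106 CPM in silent cells. The log2 ratio of Trh, -1.47, was -0.31 as a mean of strata, and in night cFOS- cells the levels were 933 CPM in active and 819 CPM in silent cells. In day cFOS+ cells Trh was 5.87 CPM in active cells and at 0 in silent cells. The log2 ratio of Gal, -1.09, was -0.07 among higher-numbered cells and -0.61 as a mean over cells, and in day cFOS- cells Gal was higher in active (191.5 CPM) than in silent cells (40.3 CPM).

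Nts had 293.1 CPM in active and 79.8 CPM in silent cells although 4.85% of active and 5.93% of silent cells held it, and its log2 ratio of 1.86 was -2.70 among higher-numbered cells. Tac1 had 89.2 CPM in active and 37.0 CPM in silent cells, with a log2 ratio of 1.25 that became -1.44 without the highest cells. Npy had 29.003 CPM in active and 1.57 CPM in silent cells.

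**Figure D2:**
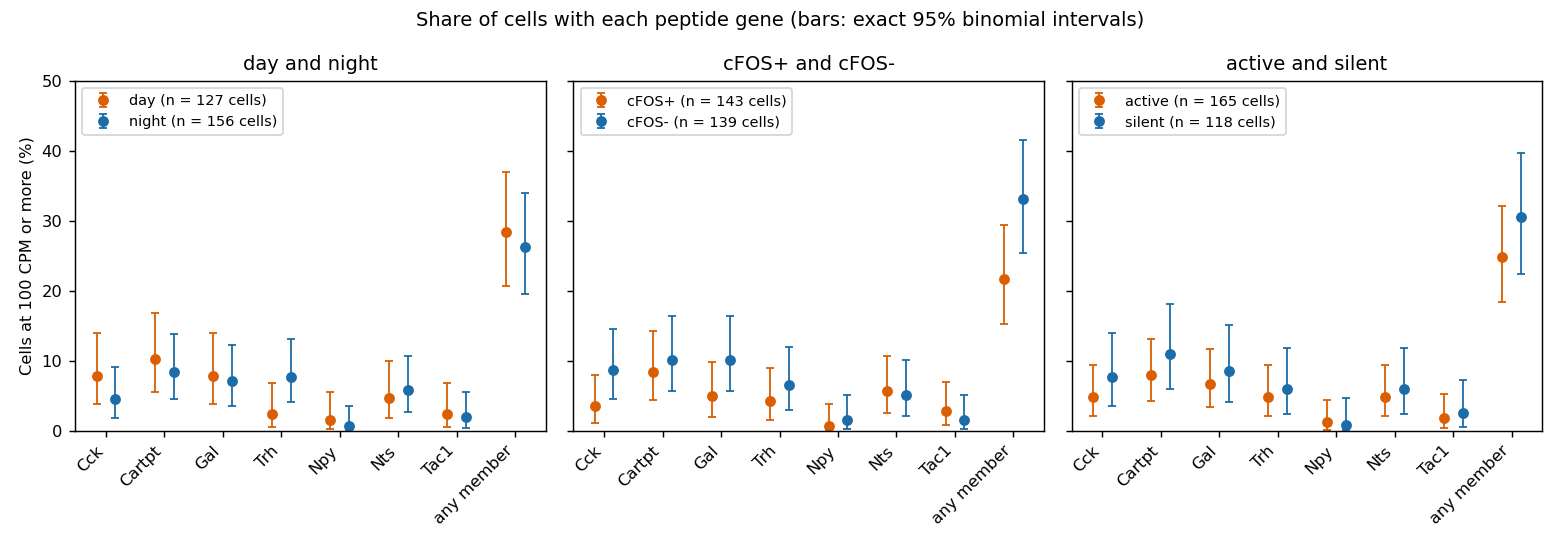
Share of cells with each peptide gene at 100 CPM or more in the 3 comparisons, with exact 95% binomial intervals. The intervals of the 2 groups overlap for every gene, and the widest gap is 21.7% of cFOS+ against 33.1% of cFOS- cells for any of the 7.

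Which of the 7 genes were held by the same cells was examined over all 297 cells. Of the 78 cells with a member, 21 (26.9%) held more than 1: 17 held 2, 3 held 3 and 1 held 4. Of the 17 Cck cells, 15 held no other member and 2 (11.8%) did. Only 26.3% of all 297 cells held any of the 7, so holding no other member was usual and is not particular to Cck. Cartpt, Gal and Nts were mostly not alone, with 15 of 26, 12 of 21 and 8 of 15 cells holding another member. Trh shared 5 of its 15 cells, Tac1 3 of 6 and Npy 2 of 4.

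The most frequent pair was Cartpt with Gal, in 7 cells, which made up 26.9% of Cartpt cells and 33.3% of Gal cells. Cartpt met Trh in 4 cells and Nts in 4 other cells, and Gal met Nts in 4 cells (19.0% of Gal and 26.7% of Nts cells). Cartpt, Nts and Tac1 occurred together in 3 cells, which were 3 of the 6 Tac1 cells. These were S175 with 4651, 12584 and 4747 CPM of Cartpt, Nts and Tac1, S444 (day silent cFOS-) with 604, 1792 and 2198 CPM, and S58 (day silent cFOS-) with 369.5, 381.2 and 1628 CPM, to which S58 added 996 CPM of Gal. The triple thus appeared by day and at night and with either cFOS label. Cck was never found at 100 CPM with Gal, Trh, Npy, Nts or Tac1, and Trh never with Nts, Npy or Tac1. These genes had only 17 Cck, 21 Gal, 15 Trh, 15 Nts, 6 Tac1 and 4 Npy cells among 297. So few holders cannot show that the genes exclude each other, which was not tested.

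**Figure D3:**
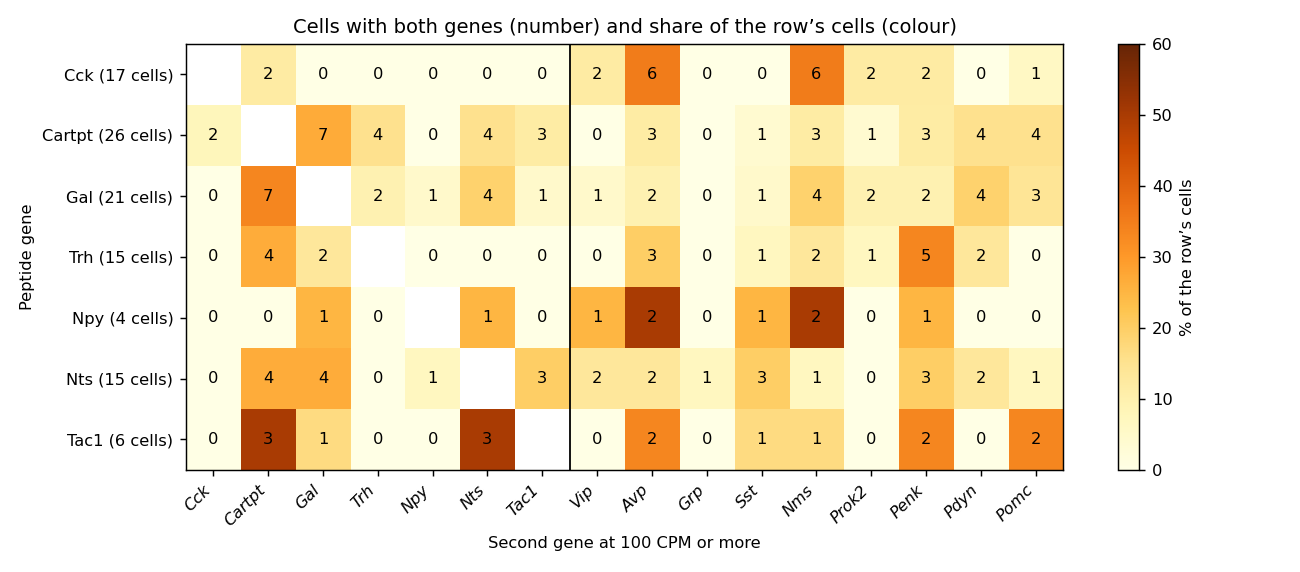
Number of cells that hold both the gene of the row and the gene of the column, coloured by the share of the row's cells. The 7 peptide genes are left of the line, with 7 cells for Cartpt and Gal, and other peptide genes are right of it, with no Vip in the 26 Cartpt and 15 Trh cells.

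Cells that held a member carried fewer of the main SCN peptides than cells that did not. Any of 8 such genes (Vip, Avp, Grp, Sst, Nms, Prok2, Penk and Pdyn) was held by 51.3% of 78 cells with a member (39.7 to 62.8%) and 82.6% of 219 cells without (77.0 to 87.4%). By gene, 6 of the 8 were held by a lower share of the cells with a member and 4 by a share at least 2-fold lower. Of 9814 genes compared in the same way, 42.8% had a lower and 57.1% a higher share, with 5.75% at least 2-fold lower and 4.98% at least 2-fold higher in cells with a member.

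Vip, the peptide of the light-receiving SCN core, was held by 5 of 78 cells with a member (6.41%, 2.11 to 14.3%) and 50 of 219 without (22.8%, 17.4 to 28.97%), a difference of -16.4 points (-23.4 to -7.18). None of the 26 Cartpt cells and none of the 15 Trh cells held Vip, which allows shares of up to 13.2% and 21.8%. Vip was found in 1 of 21 Gal, 2 of 17 Cck, 2 of 15 Nts, 1 of 4 Npy and none of 6 Tac1 cells. The difference was -31.0 points among cFOS+ cells, where 0 of 32 cells with a member and 36 of 116 without held Vip, and -2.86 points among cFOS- cells. It was -25.0 points among active and -3.86 points among silent cells. Avp, the peptide of the SCN shell, was held by 21.8% of cells with a member and 38.8% without, and Nms, which marks a broad set of pacemaker neurons, by 20.5% and 43.8%. Penk, at 19.2% with and 23.3% without, and Sst, at 8.97% with and 7.76% without, were close in the 2 sets.

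Genes that mark SCN neurons gave a lower share in cells with a member for 7 of 7 list members, 2 of them by at least 2-fold. Lhx1, a transcription factor needed for peptide expression in the SCN, was held by 6.41% of cells with a member and 18.7% without (difference -12.3 points, -19.1 to -3.31). Syt10, a vesicle protein enriched in the SCN, was held by 14.1% with and 36.5% without, and the nuclear receptor gene Rorb by 24.4% with and 40.6% without. Six6 (16.7% with, 18.3% without), Six3 (28.2%, 30.6%), Zfhx3 (38.5%, 42.5%) and Rgs16 (15.4%, 17.8%) differed by under 5 points.

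The members were not alike in this. Syt10 was held by 8 of 17 Cck cells (47.1%) but by 2 of 26 Cartpt, 1 of 21 Gal, 0 of 15 Trh and 1 of 15 Nts cells. Rorb was held by 9 of 17 Cck, 2 of 26 Cartpt, 4 of 21 Gal, 1 of 15 Trh and 4 of 15 Nts cells. Avp was held by 6 of 17 Cck cells, close to the 38.8% of cells without a member, and by 3 of 26 Cartpt and 2 of 21 Gal cells. Lhx1 was held by none of the 17 Cck, 26 Cartpt or 15 Nts cells. Where Trh cells held it, Lhx1 stood at 377 and 165 CPM, and where a Gal cell held it, at 219 CPM. Of only 4 Npy cells, S467 held Lhx1 at 1365 CPM and S242 at 127.6 CPM. Cck cells thus matched the remaining cells more closely in Syt10, Rorb and Avp than Cartpt, Gal and Trh cells did. For Lhx1, 0 of 17 Cck cells allows a share of up to 19.5%, which includes the 18.7% of cells without a member.

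**Figure D4:**
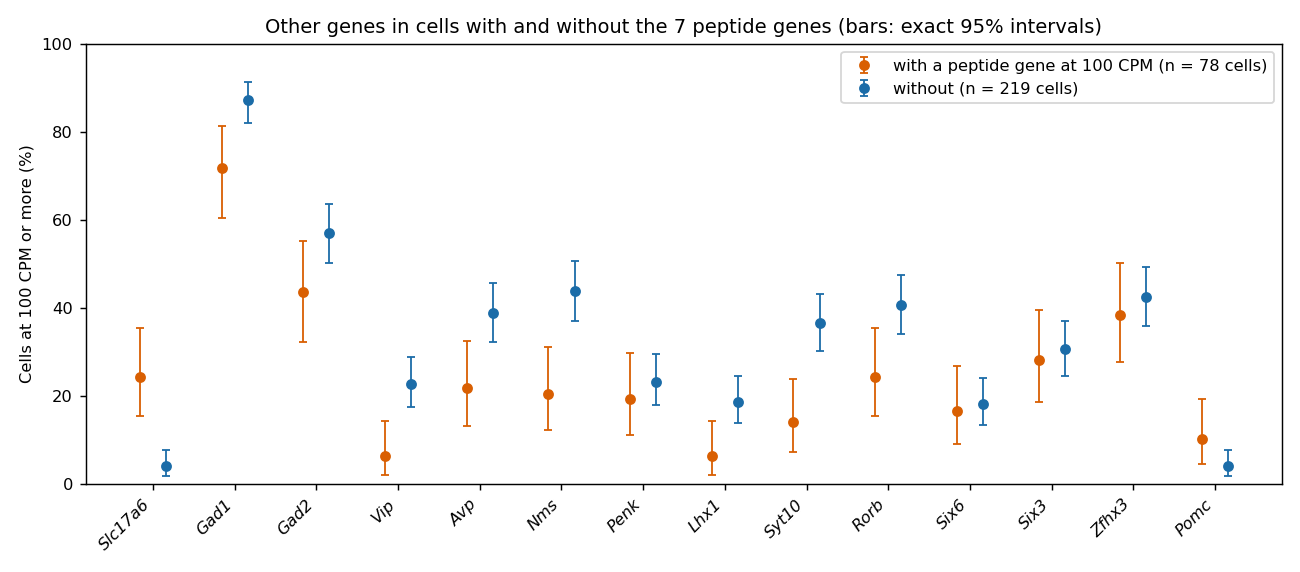
Share of cells that hold other genes, among 78 cells with 1 or more of the 7 peptide genes and 219 cells without, with exact 95% intervals. Slc17a6 is higher in cells with a member (24.4% against 4.11%), and Vip, Avp, Nms, Lhx1, Syt10 and Gad1 are lower.

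The widest difference in favour of cells with a member among the marker genes was that of Slc17a6, which encodes the vesicular glutamate transporter VGLUT2 of excitatory neurons. It was held by 19 of 78 cells with a member (24.4%, 15.3 to 35.4%) and 9 of 219 without (4.11%, 1.90 to 7.66%), a difference of 20.2 points (11.4 to 31.0). The difference was 22.9 points among lower-numbered and 17.4 points among higher-numbered cells, and between 13.4 and 32.5 points under all 12 alternatives. Gad1 was held by 71.8% of cells with a member and 87.2% without, and Gad2 by 43.6% and 57.1%. Slc32a1, the vesicular GABA transporter gene, was held by only 0 of 78 and 10 of 219 cells. A level under 100 CPM is thus no proof that a cell lacks a transmitter gene. Slc17a7 and Slc17a8, the other glutamate transporter genes, reached 100 CPM in no cell, with or without a member.

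Slc17a6 was spread unevenly over the members. Holders were 8 of 15 Trh cells (53.3%, 26.6 to 78.7%), 11 of 26 Cartpt cells (42.3%, 23.4 to 63.1%) and 6 of 21 Gal cells (28.6%, 11.3 to 52.2%). These sets overlap, and all of these 6 Gal cells except S335 also held Cartpt or Trh. Further, 1 of 15 Nts cells and none of 17 Cck, 4 Npy and 6 Tac1 cells held it, against 1 of 55 Vip cells and none of 102 Avp cells. In reverse, Gad1 was held by 15 of 15 Nts, 6 of 6 Tac1, 4 of 4 Npy, 15 of 17 Cck and 17 of 21 Gal cells, but by 14 of 26 Cartpt and 3 of 15 Trh cells. Of the 28 cells in the series that held Slc17a6, 19 (67.9%) held a member.

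**Figure D5:**
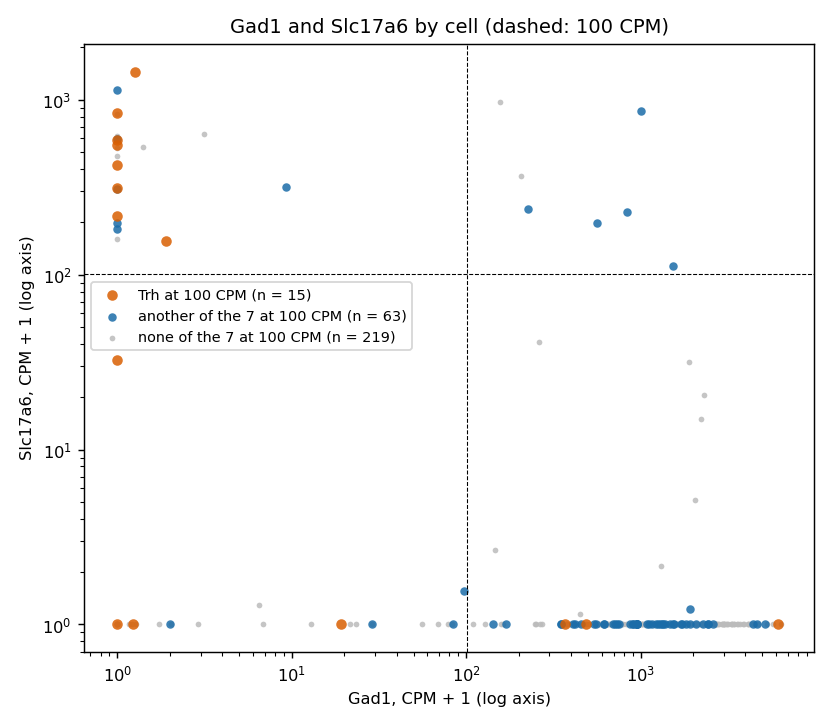
Gad1 against Slc17a6 in each cell (CPM + 1, log axes), with the 15 Trh cells in orange, cells with another member in blue and cells without a member in grey. The Trh cells lie at low Gad1 except for 3, and 8 of them are above 100 CPM of Slc17a6.

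The Trh cells fell into unequal sets by level. In the 12 cells with 4701 to 41715 CPM of Trh, Gad1 was at most 18.2 CPM, and 8 of them held Slc17a6 at 154.9 to 1445 CPM. Gad2, which encodes the other GABA-synthesizing enzyme, was held by 3 of the 12, S440 at 333.1 CPM, S29 at 190.4 CPM and S255 at 365.6 CPM, and S29 and S255 held Slc17a6 too. The remaining 3 Trh cells, with 1909, 212.8 and 176.6 CPM, held Gad1 at 368, 6121 and 484 CPM and had no Slc17a6 read. In the 2 lowest of these, Avp stood at 4449 and 2370 CPM, and both held Nms. Vip was at 0.283 CPM or less in all 15. The split by Gad1 was seen after the values were known.

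Genes with the most similar pattern to a member were ranked by Pearson r of log2 (CPM + 1) over 297 cells, among 9491 genes, as a description. For Trh these were Nrn1, which encodes the neurite growth factor neuritin (r = 0.63, held by 7 of 15 Trh cells), the synapse organizer Cbln2 (0.51, 9 cells) and Reln, which encodes the matrix protein reelin (0.41, 5 cells). Without the highest Trh cell, r was 0.59 for Nrn1, 0.48 for Cbln2 and 0.44 for Reln. For Cartpt they were the serpin gene Serpina3n (0.48, 8 of 26 cells) and Slc17a6 (0.40, 11 cells), at 0.44 and 0.38 without the highest Cartpt cell. Fstl5 was the nearest to Gal (0.42, 10 of 21 cells, 0.39 without the highest Gal cell). No gene reached 0.4 for Cck. Cells share a library each, so depth and the many zeros bear on these values.

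Peptides of the neighbouring arcuate nucleus were met in a few of these cells. Of the genes followed for that nucleus, Kiss1 reached 100 CPM in no cell and Ghrh in 1 cell, which held a member. Pomc, the precursor of the melanocortins that inhibit feeding, was at 10000 CPM or more in 3 of 78 cells with a member and in 0 of 219 without, which allows a share of up to 1.67%. All 3 held Cartpt: S334 with 13497 CPM of Pomc and 5253 CPM of Cartpt, S447 with 10378 and 3236 CPM, and S432 with 17971 and 968 CPM. These 3 cells were cFOS+, and S334 and S447 also held Gal at 261.2 and 236.9 CPM. Genes followed for SCN or GABA neurons were held too. S334 had 1713.6 CPM of Nms and 1539.8 CPM of Gad1, and S447 had 193.5 CPM of Nms and 383.9 CPM of Six6. S432 had 0 CPM of Nms, Gad1 and Six6, while Pdyn was held by S334 and S432. Whether these cells lay in the SCN or the arcuate nucleus was not tested. The next highest Pomc cell had 3663 CPM and no Cartpt read. Pomc at 100 CPM or more was held by 10.3% of cells with a member and 4.11% without, but by 4.35% with and 5.88% without among cFOS- cells, and by 5.88% with and 5.70% without when members had to reach 1000 CPM. Agrp, the partner of Npy in feeding neurons of the arcuate nucleus, was held by 1 cell of the series, S409, at 127.9 CPM, which was also the highest Npy cell and held Sst at 1356 CPM and Nts at 533.4 CPM. These cells were singled out after their values were seen.

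Depth and markers of other cell types were set side by side for the 2 sets. The median was 6641253 reads in cells with a member and 6271768 reads without, with 4852.5 and 4371 genes detected. Summed microglial markers reached 100 CPM in 43.6% of cells with a member and 36.1% without, with ranges of 0 to 7414 CPM and 0 to 34382 CPM, and all 11 markers were at 0 in 21 and 60 cells. Astrocyte markers reached 100 CPM in 29.5% and 31.1%, and oligodendrocyte markers in 39.7% and 33.8%. Among cells under 100 CPM of microglial markers, the difference was -19.7 points for Vip and 23.6 points for Slc17a6, as large as in all cells. It was also larger for Pdyn (10.1 against 3.49 points). For Avp (-10.5 against -17.0 points) and Lhx1 (-9.35 against -12.3) it was smaller than in all cells. It was also smaller for Nms (-22.1 against -23.3), Penk (-2.14 against -4.06) and Pomc (5.52 against 6.15).

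The listed receptors, which included none for the CART peptides of Cartpt, were rare. Of 18 genes, 17 were in the table, and the most widely held was Sort1, the sorting receptor that binds neurotensin, in 24 of 297 cells. Ntsr2, which is also an astrocyte gene, was held by 17 cells, and the neuropeptide Y receptors Npy1r and Npy2r by 14 each and Npy5r by 11. The cholecystokinin receptor Cckar was held by 9 cells and Cckbr by 4, the galanin receptor Galr1 by 7 and Galr2 by 1, Trhr by 4, and the tachykinin receptor Tacr1 by 4. Npy4r, Trhr2 and Tacr2 were held by none, which allows up to 4.62% of the cells with a member and 1.67% of those without. Of the receptors, 10 were compared by day and night, and 3 were at least 2-fold higher and 2 at least 2-fold lower by day, against 7% and 7.44% of all genes. For cFOS, 3 of 11 were at least 2-fold higher and 3 at least 2-fold lower in cFOS+ cells (5.74% and 8.29% of all genes), and for firing, 3 of 9 were at least 2-fold higher in active cells and none lower (7.21% and 6.28%). The highest pooled level of a receptor gene was 22.9 CPM, so these ratios rest on few cells.

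Genes that make peptides from their precursors were, by contrast, broadly held. Cpe, the carboxypeptidase that trims the cut ends, was held by 96.6% of 297 cells, the granin genes Scg2 by 95.3% and Chgb by 75.4%, and the chaperone gene Scg5 by 92.3%. The convertase Pcsk2 was held by 150 cells and Pcsk1 by 40, and Pam, which amidates peptides such as cholecystokinin and thyrotropin-releasing hormone, by 106. Trhde, which degrades thyrotropin-releasing hormone, was held by 8 cells. Of 11 processing genes compared between cells with and without a member, 9 had a higher and 2 a lower share in cells with a member, and none differed 2-fold, while 57.1% of all genes had a higher share in them. Pcsk2 was held by 43.6% with and 53.0% without, and Chgb by 83.3% and 72.6%. Of 13 processing genes, 1 was 2-fold lower and none 2-fold higher by day (Pcsk5, log2 ratio -1.49), 1 of 12 was 2-fold higher in cFOS+ cells (Pcsk1, 1.01), and 1 of 13 was 2-fold lower in active cells (Pcsk5, -1.37).

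Among the 14 depolarized cells, which entered none of the 3 comparisons, a single one held a member, namely Npy at 322 CPM in a night cFOS+ cell with 10834 CPM of Avp.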

How the data were processed

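The raw counts that the authors deposited are whole-number reads per gene symbol for 298 cells, each 1 sample. Per the submitters' processing notes, their tools included STAR and DESeq2 with build GRCm38.p4; roles, versions and annotation were not stated. The authors also deposited normalized values, treated here as signal, which equal counts divided by a single factor for each cell (relative deviation below 1e-06) and served only as an alternative scaling. Their log table was not used. Per the labels, Nextera XT was used for libraries.

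Counts were scaled to CPM per cell or, after summing, per group (Python 3.11.15, pandas 2.3.3, scipy 1.17.1, statsmodels 0.14.6). Ratios are log2 of (CPM + 1) over (CPM + 1). Genes compared had at least 5 CPM in 1 of the groups or, for shares, 10 cells. Differences of shares have Newcombe intervals. The 3 comparisons used active and silent cells and were repeated in 4 strata of the other labels. Cells S70 and S71 correlated at 0.9995 over genes, against 0.696 for the next of 44253 pairs, and were averaged. No cell was filtered. Doublets were not called; markers of other cell types were followed. The members, lists, markers and rules were chosen with earlier results of these data known. Up to 3 genes like a member were named at r of 0.4 or more, and cells at 1000 CPM of a member could be named. A gene that this rule names is not reported here. Alternatives were thresholds of 10 and 1000 CPM, a pseudocount of 10, thinning to 4000000 reads (19 cells left out), means over cells, leaving out the highest cell, the authors' scaling, a mean of the 4 strata, S70 and S71 kept apart, depolarized cells added, lower- and higher-numbered cells, and cells under 100 CPM of microglial markers. The code was tested on simulated data, with ratios taken from counts that spread each gene evenly over the cells of a group. Genes held by few cells, as the members are, were not simulated for ratios, so that test does not bear on how stable theirs are. Promoters are from RefSeq, positions and exon lengths from GENCODE M21 (GRCm38).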

Additional observations from a re-analysis of the deposited data

Results flagged for a closer look

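Cartpt, Gal and Nts differed between day and night in opposite directions in active and silent cells, and these differences were not tested. Pooled Cartpt had a day over night log2 ratio of -1.82 among active cells (54.6 CPM by day, 195.2 CPM at night) and 1.11 among silent cells (227 CPM by day, 104 CPM at night). Gal had 1.33 among active cells (73.0 CPM by day, 28.3 CPM at night) and -2.03 among silent cells (37.5 CPM by day, 156 CPM at night). The active-cell difference of Gal was in cFOS- cells (191.5 CPM by day, 19.9 CPM at night), while active cFOS+ cells went the other way (4.44 CPM by day, 37.4 CPM at night). Nts had -5.54 among active cells (10.7 CPM by day, 541 CPM at night) and 2.19 among silent cells (146 CPM by day, 31.4 CPM at night). Without the highest cell of each group the ratios were -0.68 and 1.17 for Cartpt, 0.78 and -1.68 for Gal and -4.29 and 1.83 for Nts. Seen from firing, the Nts ratio of active over silent cells was -3.66 by day and 4.07 at night. From 2 to 8 cells held the gene in each of these groups.

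Among the 7 day depolarized cFOS- cells, single values stood apart by Dixon's limit, but with all other cells at 0 any value passes it, so the limit carries no information here: Cck at 66.7 CPM and Trh at 0.129 CPM in S324, and Npy at 1.02 CPM in S381. Outside the comparisons, the night depolarized cFOS+ cell S242 held Npy at 322 CPM, or 1541 reads.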

How the results depend on the processing

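Differences in the share of cells with any member kept within their interval for 21 of 23 alternative values; by cell number, the day-night difference was -9.58 points among lower-numbered and 13.3 among higher-numbered cells. Pooled ratios depended far more on the setting: of 210 values, 44 stayed within 0.1, 145 moved further and 21 reversed a ratio that had been past 2-fold. The count of members higher by day, 2, was 4 as means over cells, without the highest cells or thinned, and 1 among lower-numbered and 6 among higher-numbered cells. Members higher in cFOS+ cells, 4, were 2 without the highest cells and 2 among higher-numbered cells, and members higher in active cells, 3, were 1 among higher-numbered cells. Cells with more than 1 member, 21 of the 78 with a member, were 3 of 34 at 1000 CPM. Without cells with microglial markers they were 12 of 44, so the count fell along with the number of cells.

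The reversals were, for day over night, Tac1 at 0.062 (means over cells), 2.45 (without the highest cells), 0.16 (mean of strata), 0.080 (thinned) and 3.85 (higher-numbered cells), Npy at -0.25 (lower-numbered cells) and Nts at 1.02 (higher-numbered cells). For cFOS+ over cFOS- they were Npy at -1.15 (without the highest cells), -0.18 (strata) and -0.27 (lower-numbered cells), Tac1 at -0.87 (without the highest cells) and -2.14 (higher-numbered cells), Gal at 0.60 (without cells with microglial markers) and Nts at -0.72 (higher-numbered cells). For active over silent they were Tac1 at -0.032 (means over cells), -1.44 (without the highest cells), -0.081 (thinned) and -2.40 (higher-numbered cells), Nts at -0.30 (strata) and -2.70 (higher-numbered cells) and Npy at -0.23 (lower-numbered cells). Ratios under 2-fold also turned under some alternatives, up to 0.54 for Cartpt and 0.59 for Gal by day, 0.22 for Trh in cFOS+ cells and 0.44 for Cartpt in active cells. Beyond the cells left out, the cause was not tested. Of 96 partner shares, chosen after seeing the data, 84 stayed within their interval, and the Pomc difference was -1.53 points among cFOS- cells. With 4 to 26 cells per member, small differences in share were not detectable. Read depth did not limit a level of 100 CPM, but loss of RNA before sequencing was not measured. A gene under 100 CPM in a cell may therefore still be expressed there, which bears on every count of cells without a gene.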
